A study of Caenorhabditis elegans with 2 samples.

Results

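The regions described here are 523 peaks of eGFP-tagged MDL-1 that lay on autosomes, away from protein-coding genes, and without the E-box that MDL-1 is known to bind. They were chosen from the authors' list of 3870 peaks kept by irreproducible discovery rate (IDR) filtering, a procedure that assesses how alike peaks rank in both replicates. A place in that list does not mean that a peak ranked alike in both. Of the 523 peaks described here, 319 were within the highest 3870 of both replicate lists. A peak was a member when its summit lay outside every protein-coding gene and outside promoter windows of 1000 bp upstream to 200 bp downstream of a protein-coding 5′ end, and when CACGTG was absent within 50 bp of it. Summits within 200 bp of a tRNA or snoRNA gene were left out. Of 3017 autosomal peaks, 682 were intergenic by this rule; 111 of these held CACGTG and 48 others lay near a tRNA or snoRNA gene. The 523 members were thus 13.5% of the IDR list and 76.7% of the autosomal intergenic peaks. The choice used position and sequence only, and no score or rank beyond the authors' own IDR threshold.

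The peaks came from chromatin immunoprecipitation and sequencing (ChIP-seq) of whole L1 larvae, the first larval stage of Caenorhabditis elegans. All samples were 1 group of mixed sex and unknown age, with 2 biological replicates and no group with another genotype, stage or treatment. The strain OP106 carries the integrated transgene wgIs106, which supplies eGFP-tagged MDL-1, in an unc-119(ed3) background shared by both replicates. Whole animals were used, so binding in different tissues cannot be told apart, and no label names the promoter that drives the transgene. The lists hold no read counts, so depth is unknown.

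MDL-1 is a basic helix-loop-helix leucine zipper protein of the MAD family, known in mammals for opposing Myc proteins at shared targets. It pairs with the MAX-like protein MXL-1, and the pair binds the E-box CACGTG. Intergenic sequence beyond promoters holds enhancers, non-coding RNA genes and repeats, and in C. elegans many distal regulatory elements sit within a few kilobases of a gene start. Transcription factors are also found by ChIP-seq at sites without their own motif.

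Sequences at 9 of the 20 highest members are shown because they hold the short sequences counted below. Each line is the plus strand of ce11 (WBcel235) from 50 bp before to 50 bp after the summit, from the RefSeq genome sequence of that assembly. Capitals mark hexamers that differ from CACGTG by 1 base, on either strand, or the GA repeat GAGAGAGA. The central 31 bases of each of these 9 windows occur once in the genome.
mtm-3, chrIII:3801468-3801568: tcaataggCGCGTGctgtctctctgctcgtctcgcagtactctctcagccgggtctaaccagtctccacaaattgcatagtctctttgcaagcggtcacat
ppm-2, chrIII:4649431-4649531: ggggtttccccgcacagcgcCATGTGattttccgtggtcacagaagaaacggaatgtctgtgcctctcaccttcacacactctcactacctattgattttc
hif-1, chrV:20778367-20778467: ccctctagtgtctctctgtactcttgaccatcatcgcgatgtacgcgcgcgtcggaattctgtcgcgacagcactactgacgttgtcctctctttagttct
egl-9, chrV:10466703-10466803: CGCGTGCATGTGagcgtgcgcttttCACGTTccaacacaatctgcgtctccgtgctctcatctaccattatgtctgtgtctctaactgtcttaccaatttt
nhr-88, chrII:2974029-2974129: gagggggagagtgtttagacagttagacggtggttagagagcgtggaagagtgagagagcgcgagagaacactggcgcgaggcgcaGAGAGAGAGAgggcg
ogt-1, chrIII:7155803-7155903: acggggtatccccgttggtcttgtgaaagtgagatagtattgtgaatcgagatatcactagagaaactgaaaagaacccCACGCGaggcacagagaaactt
mtrr-1, chrII:9284195-9284295: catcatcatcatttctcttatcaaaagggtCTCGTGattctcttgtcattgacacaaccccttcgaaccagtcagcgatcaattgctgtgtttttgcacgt
fos-1, chrV:6000430-6000530: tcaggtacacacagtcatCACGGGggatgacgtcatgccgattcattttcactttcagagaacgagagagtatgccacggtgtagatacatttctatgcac
T16A9.3, chrV:14200269-14200369: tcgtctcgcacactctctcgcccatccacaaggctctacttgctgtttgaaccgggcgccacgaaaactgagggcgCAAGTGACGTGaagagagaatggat

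The highest members lay near genes of 2 phosphatases, of the response to low oxygen and of a nuclear hormone receptor, and stood near the top of both replicate lists. The score is the authors' peak caller's own value, and no label states its scale, so ranks within a list are given beside it. The highest member had a pooled score of 633, was rank 6 in replicate 1 and rank 3 in replicate 2, and lay 1051 bp upstream of mtm-3, which encodes a myotubularin-type lipid phosphatase. It sat in a 1433-bp interval between mtm-3 and the 3′ end of xbx-5. The next, with a score of 607 and ranks 7 and 5, lay 1013 bp upstream of ppm-2, a protein phosphatase gene, and 1559 bp from T23F11.6 on the other side. Both therefore fell just beyond the promoter window, as did 31 members in all that were upstream of the nearest 5′ end by at most 1100 bp.

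The third member lay 1990 bp upstream of hif-1, the worm's hypoxia-inducible factor, which is itself a basic helix-loop-helix protein. Its score was 464 and it was rank 15 in both replicates, and its window held neither GAGAGAGA nor a hexamer 1 base from CACGTG. The fourth lay 1764 bp upstream of egl-9, the prolyl hydroxylase that marks HIF-1 for breakdown when oxygen is present. Its score was 377, with rank 18 in replicate 1 and rank 100 in replicate 2, so replicate 2 placed it lower. A further member lay 1452 bp from the hif-1 peak in the same interval toward F38A6.4, with a score of 135 and ranks 355 and 729.

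Below these came nhr-88, a nuclear hormone receptor gene, with a score of 349.8 and ranks 64 and 25 at 2560 bp upstream. The peak 2056 bp upstream of ogt-1, the O-GlcNAc transferase gene, had a score of 339 and ranks 47 and 48. At 1730 bp upstream of mtrr-1, which encodes methionine synthase reductase, the score was 305 and the ranks 55 and 87. All members described to this point, other than the one between the hif-1 peak and F38A6.4, were thus within the highest 100 peaks of each replicate list.

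Ranks 8 to 20 among the members had scores of 272 down to 195. The member nearest to F43C1.7 had ranks 97 and 90, and that of fos-1, which encodes an AP-1 transcription factor, had ranks 79 and 153. Members near R06C1.4 (ranks 143 and 99), F54F12.1 (141 and 125) and mnk-1, the MAP kinase-interacting kinase gene (142 and 132), had scores of 242, 238 and 234. Those near mstr-1 (ranks 113 and 277), T16A9.3 (188 and 124) and sup-26 (171 and 135), an RNA-binding protein gene, had scores of 222, 221 and 213. Up to here each member stood within rank 300 of both lists. The last were those near saeg-1 (ranks 166 and 197), nhr-34 (120 and 497), F21C10.10 (125 and 407), T19C3.4 (187 and 206) and nhr-21 (164 and 297), with scores of 210.4 down to 195. The peak assigned to T16A9.3 lay 5195 bp from its 5′ end and 2619 bp beyond the 3′ end of atfs-1, the mitochondrial stress transcription factor gene. Among all 20, the lowest rank was 188 in replicate 1 and 497 in replicate 2, the latter at nhr-34. In 10 of the 20 the window held a hexamer 1 base from CACGTG, 3 held GAGAGAGA, and 7 held neither.

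**Figure D1:**
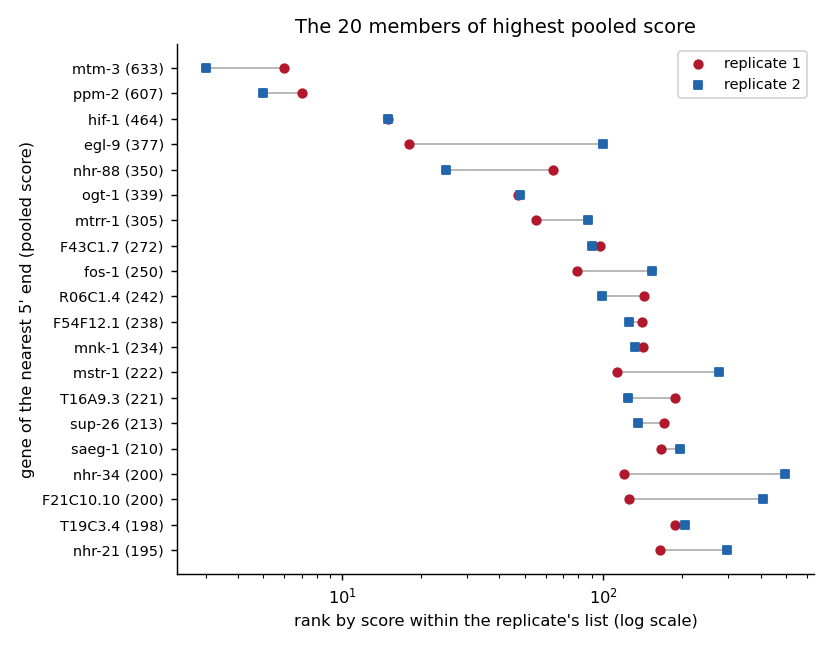
Rank of each of the 20 highest members within the list of replicate 1 (circles) and of replicate 2 (squares), on a log axis, with the gene of the nearest 5′ end and the pooled score at the left. All 20 were within rank 188 in replicate 1 and rank 497 in replicate 2.

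Over all members the pooled score ran from 32.8 to 633, with quartiles of 41.0, 53.0 and 78.4. All IDR peaks had a median of 58.8, autosomal intergenic peaks with CACGTG 81.3, autosomal promoter peaks without it 61.2, autosomal genic peaks without it 50.97 and X intergenic peaks without it 56.1. The members were therefore lower than the E-box-containing peaks of the same kind of sequence by median, and close to the genic peaks without an E-box. Of the 523 members, 102 (19.5%) were in the highest 25% of the IDR list and 150 (28.7%) in the lowest 25%. The lowest member scored 32.8 and the highest pooled peak just outside the IDR list that met the same rule scored 32.7; 58 members lay within 10 percent above the lowest IDR score.

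**Figure D2:**
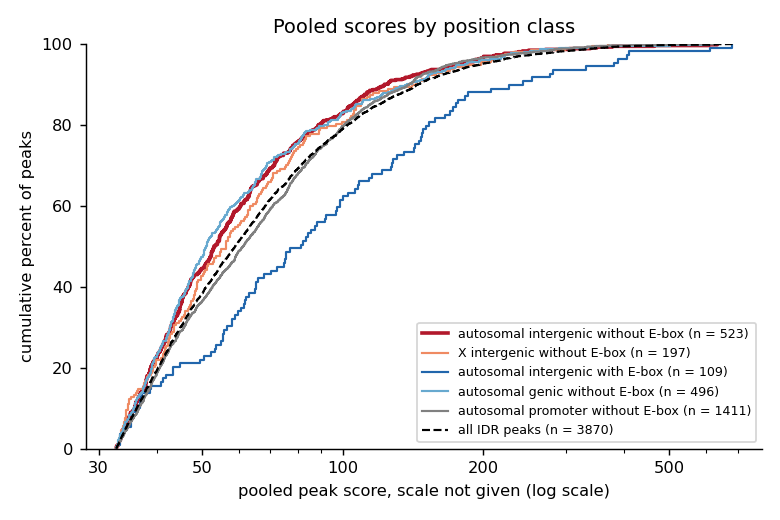
Cumulative percent of peaks against pooled score (log axis, scale not given) for the members, 4 other position classes and all 3870 IDR peaks. The line of the members (median 53.0) runs left of that of autosomal intergenic peaks with the E-box (median 81.3).

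Each member was looked for in the 30000-peak relaxed list of each replicate, at a summit distance of at most 100 bp. In replicate 1, 514 members (98.3%) were found and 9 were not, against 98.5% of all IDR peaks found. In replicate 2, 490 (93.7%) were found and 33 were not, against 95.9% of all IDR peaks found. Members within the highest 3870 of both lists numbered 319 (61.0%, exact 95% interval 56.7 to 65.2%), against 67.8% of all IDR peaks, 74.3% of autosomal intergenic peaks with CACGTG and 62.9% of X intergenic peaks without it. These shares are not independent of the IDR list, which was itself built from the ranks in both replicates. A further 128 members were in the highest 3870 of replicate 1 only, 66 in that of replicate 2 only, and 10 in neither. Over all 3870 IDR peaks these counts were 712, 451 and 83. Within the highest 3870 of replicate 1 were 85.5% of members and 86.2% of all IDR peaks. For replicate 2 these shares were 73.6% and 79.5%. No p is given, because peaks of 1 list are not replicates.

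Support by both replicates fell with the score. The pooled score comes from the same 2 replicates, and the cut at 3870 is the length of the IDR list. Such a fall was therefore built in and is not separate evidence. All of the 100 highest members were within the highest 3870 of both lists, 159 of the next 200, and 60 of the last 223 (26.9%). The median rank of these last members was 3259 in replicate 1 and 3313.5 in replicate 2. The members placed lowest by replicate 2 relative to replicate 1 were near zipt-2.1 (ranks 2342 and 26677), nhr-162 (1366 and 24672) and W10C8.5 (795 and 19803). In the opposite direction stood members near prk-1 (17108 and 1707), ttr-17 (12153 and 1672) and tln-1 (9262 and 2402). All 6 had pooled scores of 62.4 or less, so no member with a rank difference of this size was among the highest 100.

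**Figure D3:**
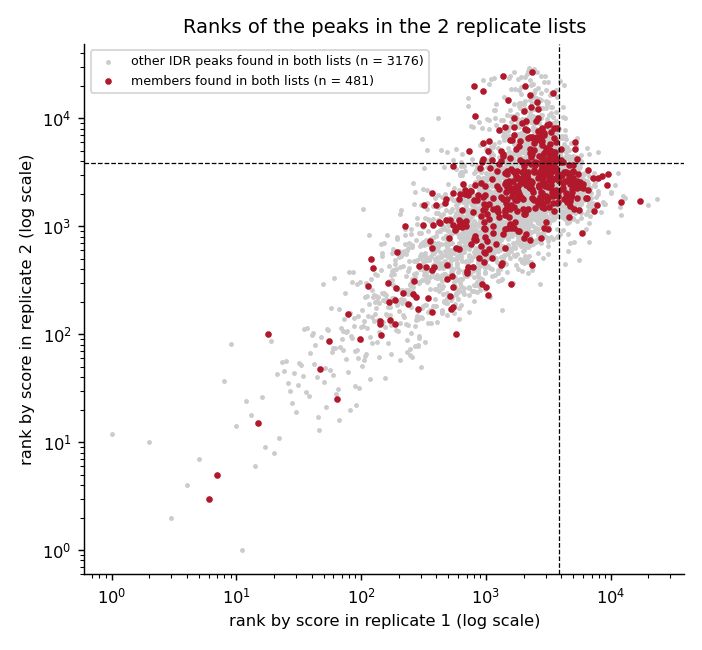
Rank by score in replicate 1 against rank in replicate 2 (log axes) for the 481 members and 3176 other IDR peaks found in both lists. Dashed lines mark rank 3870, the length of the IDR list; 319 members lie below and to the left of both lines.

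Summits of the members stood in GC-rich stretches of AT-rich sequence. The 101 bp around a member summit had a median GC content of 45.5% (quartiles 42.6 and 50.5%), against 32.7% in windows moved 500 bp to either side. In 487 of the 523 members the summit window was above the mean of its own 2 flanks. All IDR peaks had a median of 46.5% and autosomal promoter peaks without CACGTG 46.5%, so the level at the summit was near that of the other peaks. The stretch was longer at the members than at promoter peaks without CACGTG. Mean GC was 40.7% at 100 bp to the left and 41.7% at 100 bp to the right, against 33.5% and 33.6%. X intergenic peaks without CACGTG had 40.8% and 41.8% at the same distances, and autosomal genic peaks without it 41.0% and 43.0%. Autosomal intergenic peaks with CACGTG had 38.3% and 38.6%. The longer stretch was thus not particular to the members.

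T runs, TATA-like sequence and repeats were less frequent at the summits than in the flanks or the eligible sequence, and close to their shares over all IDR peaks. TTTTTTTT was found in 26 members (4.97%), against 15.8% of flanks and 3.93% of all IDR peaks. TATAAA was found in 22 (4.21%), against 13.7% of flanks and 4.08% of all IDR peaks. The 101-bp window was at least 50% masked as repeats in 16 members (3.06%), against 4.47% of all IDR peaks and 37.1% of the eligible sequence, that is, autosomal sequence open to the rule and sampled at every 100th base. The central 31 bases occurred more than once in the genome at 3 members (0.574%), against 2.12% of all IDR peaks; these were near F53E10.5, syx-16 and zip-11.

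The canonical E-box was absent within 50 bp by choice, with the nearest CACGTG at a median of 1604.5 bp. In 37 members it lay just outside that limit, within 100 bp, and in 457 there was none within 200 bp. Hexamers 1 base away from it were frequent. A member was counted when any hexamer made by replacing 1 base of CACGTG with another, read on either strand, was present. At least 1 such hexamer lay within 50 bp of the summit in 242 members (46.3%), against 46.2% of all IDR peaks and 13.6% of the flanks. At peaks without CACGTG the share was 46.8% at autosomal genic, 49.4% at autosomal promoter and 53.8% at X intergenic peaks. At autosomal intergenic peaks with CACGTG it was 29.4%. The share of members was thus close to that of the whole list, not above the other classes without CACGTG, and above that of the flanks. The flanks were also lower in GC, and the part of base composition in this difference was not tested.

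Among these hexamers CACATG, the variant in the ppm-2 and egl-9 windows, was found in 69 members (13.2%), against 10.9% of all IDR peaks and 2.49% of flanks. CACGAG, seen at mtrr-1 as its complement, was found in 52 (9.94%), against 9.61% of all IDR peaks and 1.72% of flanks. CACGCG, seen at mtm-3 and ogt-1, was found in 31 (5.93%), against 9.33% of all IDR peaks and 1.43% of flanks. Promoter peaks without the E-box held CACGCG at 11.8% and CACATG at 8.29%, so the order of these variants differed between the classes. The palindrome CGCGCG, present at hif-1, was found in 23 members (4.40%), against 5.27% of all IDR peaks and 0.191% of flanks.

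The GA repeat had a higher share at the members than at each of the 4 other peak classes. GAGAGAGA or its complement lay within 50 bp of 68 member summits (13%, exact 95% interval 10.2 to 16.2%), against 6.64% of all IDR peaks. The share was 5.08% at X intergenic peaks without CACGTG, 5.50% at autosomal intergenic peaks with it, 9.68% at genic and 5.60% at promoter peaks without it. It was 0.860% in the flanks and 0.894% in the eligible sequence. The unbroken GA runs were 8 to 24 bases long, with a median of 10.5. Runs of the reverse complement were counted as the same sequence.

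Members with the GA repeat scored somewhat higher than those without, with medians of 63.4 and 52.2. Of the 68, 50 (73.5%) were within the highest 3870 of both replicates, against 59.1% of the other members. That share is not independent of the score. The 68 were led by nhr-88 (349.8), R06C1.4 (242), T19C3.4 (198), cpt-1 (181) and F58D5.5 (177). The cpt-1 gene encodes carnitine palmitoyltransferase, which carries fatty acids into mitochondria, and its peak also held CACGAG. The central 31 bases of all 68 occurred once in the genome, though 6 of them (8.82%) were at least 50% repeat-masked, against 2.20% of the other members. The part of repeat sequence in their scores was not tested.

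The GATA-type element CTTATCA, known in worms as the DAF-16-associated element, was found in 35 members (6.69%). It was found in 4.24% of all IDR peaks and 2.01% of flanks. Autosomal genic peaks without CACGTG held it at 6.45%, close to the members. The share was 4.06% at X intergenic and 2.76% at autosomal promoter peaks without CACGTG, and 4.59% at autosomal intergenic peaks with it. Of the 35, 11 (31.4%) were in the highest 3870 of both replicates, against 61.0% of all members, and their median rank was 2416 in replicate 1 and 4012.5 in replicate 2. Their median score was 45.6, against 53.0 for all members. The highest of them was the member at mtrr-1. Support by both replicates and the score are not independent, so the lower share and lower median are not separate observations.

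**Figure D4:**
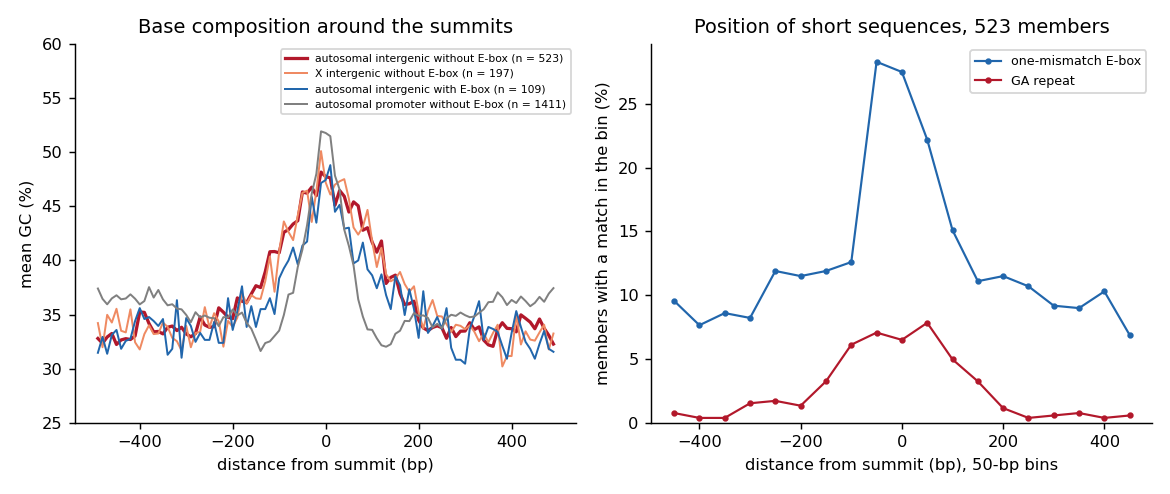
Left, mean GC content (%) in 10-bp steps against distance from the summit (bp) for the members and 3 other classes; the members reach 47.7% at the summit and 34.6% at 200 bp to the left. Right, percent of the 523 members with a match centred in each 50-bp bin: hexamers 1 base from CACGTG are in 27.5% and the GA repeat in 6.5% of members in the central bin.

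By position, the members leaned toward the upstream side of genes, as did the other intergenic classes. The nearest protein-coding 5′ end lay at a median of 2197 bp (quartiles 1437.5 and 3422 bp), against 2716 bp in the eligible sequence. For 423 members (80.9%) the summit was upstream of that 5′ end, against 65.4% of the eligible sequence. Autosomal intergenic peaks with CACGTG were upstream in 78%, at a median distance of 2357 bp. X intergenic peaks without it were upstream in 73.1%, at a median of 2413 bp. Over 1000 bp and up to 1500 bp there were 148 members (28.3%), against 17.1% of the eligible sequence, and 58 members (11.1%) were beyond 5 kb, against 21.3%. The member farthest from a 5′ end was at 13379 bp.

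Flanking genes pointed away from each other at 192 members (36.7%), against 28.8% of the eligible sequence, and toward each other at 24 members (4.59%), against 17.6%. With promoter windows of 2000 bp upstream to 500 bp downstream, the latter share of members was 7.24%. The remaining 307 (58.7%) lay between genes in tandem, against 53.5%. At autosomal intergenic peaks with CACGTG, the flanking genes pointed away from each other in 39.4% and toward each other in 7.34%. At X intergenic peaks without it these shares were 32% and 12.7%. Between genes that point away from each other, the highest members were those at ppm-2, hif-1 and mtrr-1. In the convergent arrangement the highest was 4947 bp from T23E1.1 and 8937 bp from Y67D8B.1 (score 181, ranks 372 and 160). It was followed by one between nlp-40, a neuropeptide gene, and rcor-1, a CoREST-like corepressor gene (score 136, ranks 538 and 349), and one near W04D12.1 (score 118, ranks 477 and 1132). In tandem the highest were at mtm-3, egl-9 and nhr-88.

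Per megabase of eligible sequence there were 27.1 members on the autosomes. Chromosome III had the most, with 119 members at 42.7 per Mb, and chromosome IV the fewest per Mb, with 102 at 20.4. On chromosomes I, II and V the densities were 33.5, 27.7 and 21.1 per Mb. Chromosome III also had the most IDR peaks of the autosomes, with 646. Members made up 15.1% of the IDR peaks on I, 17.5% on II, 18.4% on III, 17.8% on IV and 17.9% on V. These shares differed less between chromosomes than the densities did. The same rule on X, which is outside the set, gave 34.8 per Mb. On autosomes the middle 50% of each chromosome, where conserved genes are denser, held 33.1 per Mb and the remaining ends 21.8, and the middle was higher on each of the 5. On X the order was the opposite, at 30.5 and 38.3 per Mb.

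**Figure D5:**
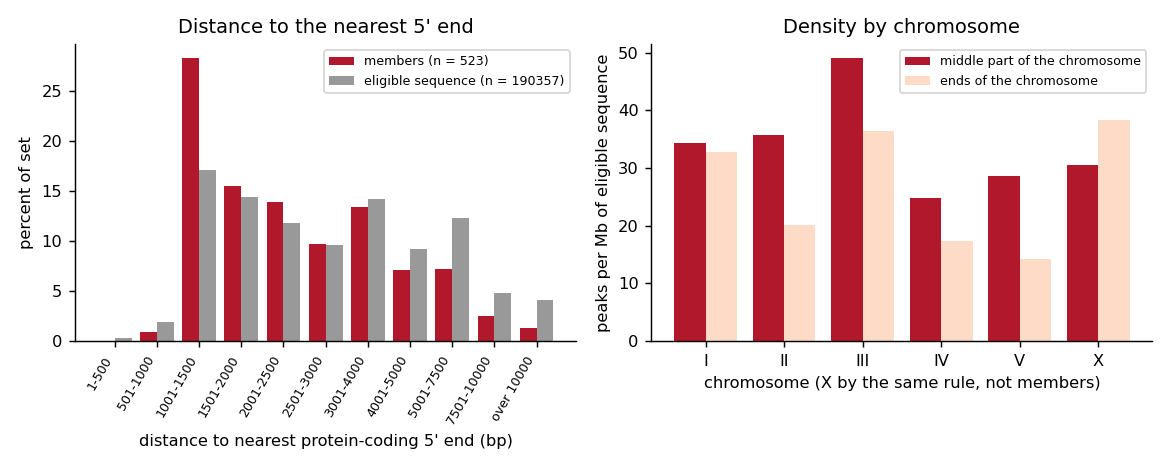
Left, distance from the summit to the nearest protein-coding 5′ end (bp, unequal bins) as percent of the 523 members and of 190357 sampled positions of eligible sequence; 28.3% of members are in the bin that ends at 1500 bp. Right, peaks per Mb of eligible sequence in the middle and at the ends of each chromosome, with X by the same rule.

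The rule kept members away from protein-coding genes but not from non-coding ones other than tRNA and snoRNA genes, and the share of members near these was close to that of the whole list. Within 200 bp of a non-coding gene or pseudogene lay 104 members (19.9%), against 18.3% of all IDR peaks and 26.9% of the eligible sequence. Most of these, 84 (16.1%), were near genes of the biotype ncRNA, short transcripts with a median length of 140 bp, against 16.2% of all IDR peaks and 3.98% of the eligible sequence. In 49 of the 84 the summit lay inside the ncRNA gene. The 3 highest were inside T23F11.10 near ppm-2, F22E12.10 near egl-9 and C10F3.15 near fos-1, with scores of 607, 377 and 249.8. Whether these annotated transcripts come from the regions bound here was not tested.

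Other non-coding types were few. Pseudogenes were near 7 members (1.34%), against 0.336% of all IDR peaks and 14.5% of the eligible sequence. Genes of piRNAs were near 6 (1.15%), against 0.93% of all IDR peaks and 7.98% of the eligible sequence. Both shares were thus below the eligible sequence and not below the whole list. Long intergenic RNA genes were near 9 members (1.72%), against 0.749% of all IDR peaks and 0.985% of the eligible sequence, led by linc-128 (score 190.5, ranks 191 and 265), linc-91 (116, ranks 509 and 779) and linc-110 (69.7, absent within 100 bp in replicate 1 and rank 719 in replicate 2). MicroRNA genes were near 3 members (0.574%), against 0.258% of all IDR peaks: mir-52, at 174 bp (score 100.3, ranks 480 and 1804), mir-53, at 124 bp (84.7, ranks 953 and 1422), and mir-238, at 147 bp (55.1, ranks 1678 and 8215). Genes mir-52 and mir-53 belong to the large mir-51 family of worms. The mir-238 peak was weaker in replicate 2 by rank.

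The nearest 5′ ends belonged to 450 distinct genes. Of these, 390 had 1 member, 60 had 2 or more and 11 had 3 or more, and 82 were also the nearest gene of an IDR peak in a promoter window. Most members, 4 each, fell to egl-27, which encodes a chromatin protein related to metastasis-associated factors, and sca-1, the calcium pump gene of the sarcoplasmic reticulum. The egl-27 members scored 38.8 to 70.0 and the sca-1 members 33.0 to 57.6, on either side of the member median of 53.0. Genes with 3 members included dlk-1, a kinase gene of axon regeneration (34.5 to 108), and sup-26 (53.0 to 213).

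Some members lay close to each other. When those within 2000 bp of each other were joined, 110 members formed 48 runs of 2 or more, 12 of them of 3 or more. The largest, of 4 members each, were between sup-26 and R10E4.3 over 2699 bp (scores 53.0 to 213) and between pde-2 and R08D7.7 over 3026 bp (54.4 to 129.8). The highest run of 3 was between scpl-1 and Y106G6D.1 over 2339 bp (42.1 to 122). Members of a run are neighbours on the chromosome, so they are not independent of each other. Runs are not given for the other classes.

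By the nearest 5′ end, 37 members (7.07%) belonged to genes of 8 transcription factor lists, against 5.43% of all IDR peaks and 4.64% of the eligible sequence, which counts long intergenic stretches by their length. The count includes the 4 members at egl-27, a gene that the name pattern of the GATA list takes in. Nuclear hormone receptors, ligand-regulated factors of which worms have a large family, made up 20 of these members at 17 genes, or 3.82%, against 2.84% of all IDR peaks and 1.91% of the eligible sequence. Their scores ran from 34.9 to 349.8, led by nhr-88, nhr-34 and nhr-21, followed by nhr-105 (125, ranks 320 and 1569), nhr-70 (109, ranks 573 and 961) and nhr-61 (103.3, ranks 1114 and 503). Members at nhr-88, nhr-34 and nhr-46 came as pairs, with second scores of 41.9, 47.0 and 51.6. The lowest, at nhr-258, was rank 3497 in replicate 1 and was not found within 100 bp in replicate 2. In 19 of the 20 the member was upstream of the 5′ end. The share was thus above that of the eligible sequence and nearer to that of the whole list.

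Among the other factor genes, fos-1 had a member at 3121 bp (score 249.8, ranks 79 and 153) and the Krüppel-like factor gene klf-1 at 2798 bp (98.7, ranks 987 and 948). The FoxA gene pha-4 had one at 3827 bp (42.7, ranks 3356 and 3583), and the lipid regulator sbp-1 one at 2383 bp (46.6, ranks 2801 and 4311). Those of pha-4 and sbp-1 were among the lower members. The heterochronic gene lin-41, a target of the let-7 microRNA, had one at 1459 bp (98.0, ranks 614 and 1969). No member was nearest to a T-box, Sox, ETS or Runt gene of the list (0.129% of all IDR peaks), to a cuticle collagen (0.336%), to a histone gene (0.129%) or to an ion channel or receptor gene (0.31%). With so few such peaks in the whole list, these counts of 0 do not set the members apart.

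Metabolic and signalling lists held few members each. Lipid metabolism genes took 10 members (1.91%), against 0.879% of all IDR peaks and 0.502% of the eligible sequence. They included cpt-1 (181, ranks 273 and 220), the acyl-CoA synthetase gene acs-2 (81.5, ranks 991 and 1581) and the desaturase gene fat-2 (72.4, ranks 1133 and 1830). Autophagy and lysosome genes took 3 (0.574%), against 0.853% of all IDR peaks: epg-9 (177), unc-51 (98.9), the ULK-type kinase gene, and bec-1 (63.04), the Beclin gene. Insulin and TOR genes took 4 (0.765%), against 0.594% of all IDR peaks and 0.372% of the eligible sequence, of which 2 were at the insulin-like gene ins-13 (180.0 and 56.1). Chemoreceptor genes, the largest of the lists, took 2 members (0.382%), against 0.749% of all IDR peaks and 6.76% of the eligible sequence.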

How the data were processed

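Peaks of eGFP-tagged MDL-1 in 2 biological replicates were taken from the deposited peak lists. Per the deposited file inventories, the authors called relaxed ce11 peaks per replicate and for the pool of both, and made the optimal IDR list; the pooled list names a control, and the control was not used here. Not given in the sources used here are the aligner, peak caller, versions, IDR threshold and extraction steps. The deposited score of a peak is the authors' own value on an unstated scale and was used only within a list. The deposited −log10 q-value column has many tied values and was used for no ranking. The ce10 lists were not used here.

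Summits were set against Ensembl genes of WBcel235, the sequence of ce11, with 19973 protein-coding genes. Motifs were counted on both strands within 50 bp of a summit, and non-coding genes within 200 bp. Comparison values came from all 3870 IDR peaks, 4 other position classes, 1046 windows moved by 500 bp and the sequence open to the rule at every 100th base (190357 positions). Shares carry exact 95% binomial (Clopper-Pearson) bounds for counting error alone. Peaks of the same list are not replicates, and neighbouring members are not independent of each other. A member missing from a relaxed list has no summit there within 100 bp: it can lie below the last, peak 30000, or have its summit farther off. Nothing in the labels says more of the replicates than that they are biological ones. The members and all lists were chosen with earlier results of these data known.

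Regions named are the 20 members of highest score; the 3 highest of each flanking arrangement, non-coding type and gene list; the largest runs; and the 3 largest rank differences in each direction. The genes with most members, the members with each short sequence and the members with a repeated centre were chosen after their values were seen. Gene lists (20) are name patterns. Alternatives changed the promoter window, the E-box distance, the tRNA and snoRNA distance, the peak set, the position, the windows and the replicates. Classification, motif search and summit matching were checked on simulated data. Python 3.11.15, numpy 2.4.6, pandas 2.3.3 and scipy 1.17.1 were used.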

Additional observations from a re-analysis of the deposited data

How the results depend on the processing

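Of 130 recomputed values under 16 alternatives, 109 stayed within the interval of the value reported (for the number of members, within 1.5 times). The number of members was 304 with promoter windows of 2000 bp upstream to 500 bp downstream and 216 in the higher-scoring 50% of the IDR list, fewer by construction. In that higher-scoring part, 93.1% were within the highest 3870 of both replicates, the median score was 88.1, GAGAGAGA was in 17.1% and median GC was 48.5%. The median distance to a 5′ end was 1630 bp with promoter windows of 500 bp upstream and 3119.5 bp with those of 2000 bp. The share between convergent genes was 7.24% with windows of 2000 bp and 6.83% with no tRNA and snoRNA exclusion, against 4.59%. The share upstream of the nearest 5′ end was 70.4% with windows of 2000 bp and 85.1% with those of 500 bp, against 80.9%. Within 50 bp of a replicate summit in place of 100 bp, the share in both replicates was 50.5%, and within 200 bp 63.1%. Windows of 100 bp to either side gave GAGAGAGA in 22.8%, hexamers 1 base from CACGTG in 66.5% and a median GC of 44.8%. Flanks of that width also held more, with GAGAGAGA in 1.53% and those hexamers in 27.5%. Non-coding genes within 500 bp were near 27.7%. Flanks at 1000 bp held GAGAGAGA in 1.82% and those hexamers in 20.3%, still below the members.

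Without replicate 1 or without replicate 2, with the 3870 highest peaks of the other list, the number of members was 529 to 538, and 57.6 to 58.4% were also among the highest 3870 of the replicate left out. GAGAGAGA was in 12.3 to 13%, hexamers 1 base from CACGTG in 41.8% (replicate 2 alone) to 47.0%, and median GC was 45.5 to 46.5%. The median distance to a 5′ end was 2200 to 2230.5 bp, and 19.1 to 21.2% were near a non-coding gene. Scores of the replicate lists share no scale with the pooled score, so no median score is given. No paired analysis was possible because the series holds 1 group. The unknown depth limits what can be said of members missing from a replicate list.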

Other observations

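After the members at hif-1 and egl-9 were seen among the 4 highest, 6 more genes of the hypoxia pathway were looked up. Of the 8 genes, 4 were the nearest gene of 1 member each: hif-1 (score 464), egl-9 (377), swan-1 (79.3) and rhy-1 (67.5). The last pair are genes known in worms for restraining HIF-1. The count includes hif-1 and egl-9, which prompted the search. Of all 19973 protein-coding genes, X included, 450 were the nearest gene of at least 1 member. IDR peaks in promoter windows were present at egl-9 (43.4) and at aha-1 (61.5), the partner of HIF-1, and absent at the others. No promoter peak was found at vhl-1, cysl-1 or cysl-2, and no member lay nearest to cysl-2; vhl-1 and cysl-1 are on X and so cannot have members. At egl-9 the distal peak thus had the higher score. Inside the gene body of hif-1 lay 1 further IDR peak (56.4). The genes were picked after seeing values, so the count describes these lists only.

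Pooled peaks just below the IDR list were classed by the same rule. Among ranks 3871 to 7740, 730 peaks (18.9%) met it, against 13.5% of the IDR list. GAGAGAGA was in 8.63% of them and a hexamer 1 base from CACGTG in 38.1%, and their median GC was 43.6%. Each of these values was lower than at the members. Over all peaks of these ranks GAGAGAGA was in 5.37%, against 6.64% of the IDR list, so its share was lower there as well.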
